A study of Mus with 5 samples.

Results

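The strong BATF binding sites that were missing after retinoic acid (RA) are 357 regions of the mouse genome (mm10) at which BATF was bound in control CD8 T cells and at which no BATF peak was called nearby once the cells had received RA. They were chosen by their measured values. A peak of the BATF control list was taken if it lay on an assembled chromosome, had a -log10 p of at least 20, was not placed in an exon, and had no peak of the BATF list with RA within 5 kb of either edge. Of the 15812 BATF control peaks, 4986 were this strong and outside exons, so that the 357 missing sites were 7.16% of them and the other 4629 were kept. Over all 15810 BATF control peaks on chromosomes, 4764 (30.1%) had no BATF peak with RA within 5 kb. These counts follow from the rule itself and are given as a description.

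The peaks come from chromatin immunoprecipitation and sequencing (ChIP-seq), in which an antibody recovers the DNA fragments bound by a protein and the places where fragments pile up are called as peaks. CD8 T cells from the spleen of WT mice had been stimulated with antibodies to CD3 and CD28 in the presence of IL-2 for 24 h and left in IL-2 alone for another 24 h. RA was then added at 50 nM for 1 h, or left out (control). The sample labels call the cells naive CD8 T cells and name a different interleukin for almost every sample (IL-7 to IL-10), which the growth protocol does not. The lists hold binding and not expression, so the cell type could not be checked by the levels of marker genes. There are 4 peak lists, for BATF and for RARα with and without RA, and together they hold 27480 peaks. Each list was called on 2 pooled ChIP files against the same 1 file from normal rabbit IgG. The sources used here do not say whether the 2 files are separate cultures, or whether the IgG cells had received RA, or how many mice went into each pool. For the study as a whole, its methods name C57BL/6 and dLck-Cre animals as WT and describe age-matched mice of both sexes, with males in most of the later work, but not which of these each pool came from. Each condition is therefore 1 list without a spread between replicates, and no difference between control and RA was tested. The BATF pools held 23110180 fragments in the control and 16424269 with RA (71.1% as many), against 11410673 for IgG.

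BATF belongs to the AP-1 family of transcription factors. It has no activation domain of its own, pairs with JUN proteins, and binds together with IRF4 next to AP-1 motifs, and it is needed for the expansion and effector differentiation of CD8 T cells after they meet antigen. RARα is a nuclear receptor that binds DNA as a dimer with RXR and changes its partner proteins when RA, a metabolite of vitamin A, occupies its pocket. In T cells, many BATF sites lie in enhancers, away from promoters, where BATF shares DNA with other factors.

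Each BATF peak carries the number of fragments at its summit, a fold enrichment that sets this number against the local level of IgG, and the Poisson p-value of the peak caller. The missing sites had a median of 41.0 fragments (31.0 to 83.0), against 51.0 at the kept sites. Their median fold enrichment was 7.74 (3.52 to 18.2), against 8.73, and their median -log10 p was 24.0 (20.02 to 69.3), against 31.9. The missing sites thus lay toward the lower end of the strong sites, and 23 of the 357 had a -log10 p of 40 or more. They were also narrower, with a median width of 529 bp (239 to 2813) against 991 bp. Among the 4039 kept sites within the same range of -log10 p, the median width was still 981 bp. The local IgG level was 4.32 fragments in the median at missing sites and 4.80 at kept ones. The nearest BATF peak with RA was a median of 30670 bp away, 51 sites had one within 10 kb, and 66 had none within 100 kb.

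The share of strong sites that were missing fell from band to band of strength. It was 14.9% (212 of 1425) for a -log10 p of 20 to 25, 8.82% (85 of 964) for 25 to 30, 3.60% (37 of 1027) for 30 to 40 and 2.32% (23 of 992) for 40 to 70. None of the 578 sites of 70 or more was missing, which allows a share of up to 0.519%. Width sorted the sites as well. Of those under 300 bp, 31 of 88 (35.2%) were missing, and of those of 1000 bp or more, 47 of 2322 (2.02%). Within the weakest band of 20 to 25 the share still fell from 39.5% to 6.15% across the same widths. The limit for a share of 0 is 3 counts of the total, and the intervals given for other shares are Wilson intervals at 95% confidence. They hold the error of counting alone, since peaks of 1 list are not replicates.

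**Figure D1:**
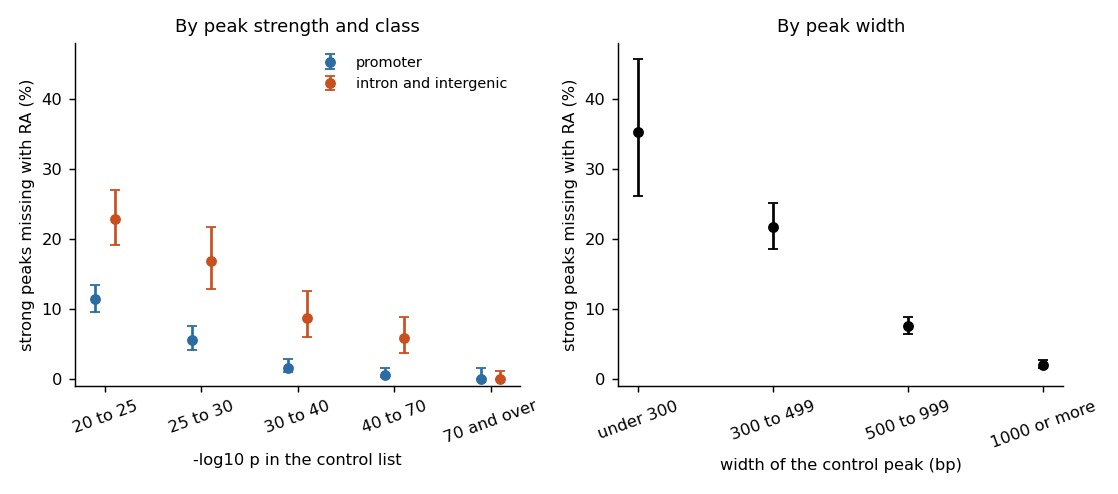
Share of strong BATF control peaks outside exons that had no BATF peak with RA within 5 kb (%), by -log10 p in the control list (left, promoters in blue, introns and intergenic positions in orange) and by peak width in bp (right). Points are shares and bars are Wilson 95% intervals; the share falls from 35.2% under 300 bp to 2.02% at 1000 bp or more, and introns and intergenic positions lie above promoters in the 4 bands below 70.

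Fewer fragments were sequenced with RA. Scaled down to the RA pool, the missing sites would have had a median of 29.1 fragments (22.0 to 59.0) and a median -log10 p of 17.6 (14.4 to 49.7). All of these values lie past the p-value cutoff of 1e-05, which the strength asked for by the rule already fixes, so this is a description and no test of the part of depth. The smallest number of fragments that would have passed at these positions with RA had a median of 13.0 (11.0 to 34.0), or 46.9% of the scaled control number (22.1 to 62.1). At the 4510 strong sites that overlapped a BATF peak with RA, the measured RA fragments were a median of 78.2% of the scaled control number, with quartiles of 67.1% and 91.2%. Only 51 of those 4510 (1.13%) fell below 46.9%. This percentage can be measured only where a peak was called, so it leaves out the sites with the fewest RA fragments. The caller also asked for a length of at least 231 bp with RA, and the peaks with RA had a median of 62.5% of the width of the control peaks they overlapped. The part of width in the missing calls was not tested.

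**Figure D2:**
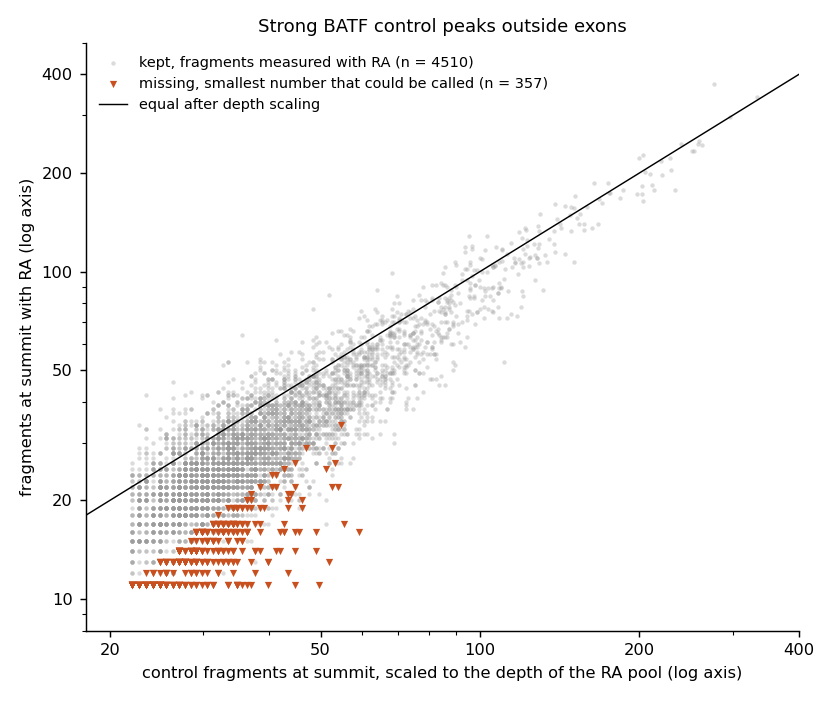
Fragments at the summit with RA against control fragments scaled to the depth of the RA pool, both on log axes, for the 4510 strong sites that overlapped a BATF peak with RA (grey) and the 357 missing sites (orange triangles, drawn at the smallest number that would have passed the p-value cutoff, above which no peak was listed). The line marks equal values after scaling; the grey points have a median of 78.2% of the scaled control number and the triangles a median of 46.9%.

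Missing sites lay away from promoters more often than kept sites. Of the 357, the annotation placed 166 at promoters (46.5%, 95% interval 41.4 to 51.7), 98 in introns (27.5%, 23.1 to 32.3) and 93 between genes (26.1%, 21.8 to 30.8). Of the kept sites, 68.3% lay at promoters (67.0 to 69.6), 15.4% in introns and 16.2% between genes. Read the other way, 4.99% of the strong promoter sites were missing (4.30 to 5.78), against 12.1% of those in introns and 11.0% of those between genes. The gap was there at like strength. In the band of 20 to 25, 11.3% of promoter sites and 22.8% of the others were missing, and in the band of 40 to 70, 0.602% and 5.81%. Promoter sites were also wider. Among kept sites the median width was 1134.5 bp at promoters, 727 in introns and 688.5 between genes. Among missing sites it was 635.5, 446 and 451. The classes were not compared at like width, so class and width are not separated here. Weaker BATF control sites, below a -log10 p of 20, were not chosen by the rule. The 4240 of them that were missing outside exons lay at promoters in 52.4% of cases. Outside promoters, 41 of the 191 missing sites (21.5%, 16.2 to 27.8) were annotated to a LINE, SINE, LTR or DNA repeat, against 14.7% of the kept ones (12.9 to 16.6), and these intervals overlap.

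RARα binding was not used to choose the sites. In control cells a RARα peak lay within 5 kb of 12 of the 357 missing sites (3.36%, 1.93 to 5.78) and of 406 of the 4629 kept sites (8.77%, 7.99 to 9.62), where the share over all BATF control peaks on chromosomes was 7.16%. The intervals of missing and kept sites do not overlap. The share was as low at the 4240 weaker missing sites, with 135 (3.18%, 2.70 to 3.76), so it was not particular to strong sites. The gap was widest outside promoters, where 8 of 191 missing sites (4.19%, 2.14 to 8.05) and 237 of 1467 kept sites (16.2%, 14.4 to 18.1) had a RARα control peak, and of the weaker missing sites 5.65% did (4.72 to 6.74). At promoters the numbers were 4 of 166 (2.41%, 0.941 to 6.03) and 169 of 3162 (5.34%), with overlapping intervals. Outside promoters the missing sites had the lower share in each band of strength. At 20 to 25 it was 5 of 100 (2.15 to 11.2) against 16.3% (12.7 to 20.6). At 25 to 30 it was 2 of 47 (1.17 to 14.2) against 17.7% (13.3 to 23.1), with overlapping intervals. The intervals also overlapped at 30 to 40 (1 of 25 against 14.1%) and at 40 to 70 (0 of 19 against 17.5%). Width moved with this share too. Outside promoters and below 500 bp the share was 4.42% (1.90 to 9.94) at missing sites and 10.7% (7.84 to 14.4) at kept sites, with overlapping intervals, and at 500 bp or more it was 3.85% (1.32 to 10.7) and 17.9% (15.7 to 20.2). With RA, a RARα peak lay within 5 kb of 5 missing sites (1.40%, 0.600 to 3.24) and of 53 kept sites (1.14%), against 0.841% of all BATF control peaks on chromosomes. At this number of RARα peaks no difference between missing and kept sites was detectable with RA. Of the weaker missing sites, 9 of 4240 had one (0.212%, 0.112 to 0.403), an interval below that of the 357 missing sites.

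**Figure D3:**
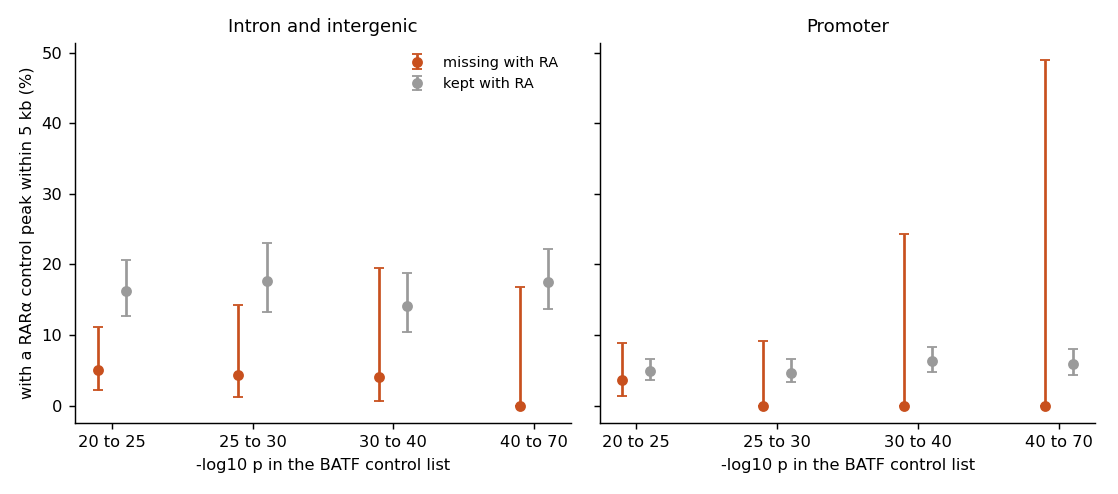
Share of strong BATF control peaks with a RARα control peak within 5 kb (%), by -log10 p in the BATF control list, for introns and intergenic positions (left) and promoters (right). Orange points are sites missing with RA, grey points are kept sites and bars are Wilson 95% intervals; outside promoters the orange points sit at 5.00% or lower in all 4 bands and the grey ones at 14.1% or higher.

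The BATF control peaks in the surroundings had a peak with RA about as often around missing sites as around kept ones. Pairs of a missing site and another BATF control peak 10 to 50 kb away numbered 734. In 526 of them (71.7%) that other peak had a BATF peak with RA within 5 kb, and around kept sites in 72.0%. A peak near several sites was counted once for each, so no interval is given. Over all BATF control peaks on chromosomes, 30.1% had no BATF peak with RA within 5 kb. The annotation assigns each peak to 1 or more genes, often to several within about 100 kb, and it named 602 genes for the missing sites and none for 13 of them. Of these genes, 350 (58.1%) had a BATF peak with RA elsewhere, a lower share than the 76.2% of all 11912 genes with a BATF control peak that had one with RA, as follows in part from choosing genes by a missing site. For the intron sites, 78 of 98 (79.6%) belonged to a gene with another BATF peak with RA. For the promoter sites, 47 of 166 did (28.3%). The missing promoter site was the only BATF control peak of its gene in 86 cases (51.8%, 44.3 to 59.3), of which 85 had no BATF peak with RA at all, and the kept promoter site was the only one in 41.9% (40.2 to 43.6).

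The strongest missing site was assigned to Jdp2 and to Batf itself, at chr12:85593079-85593552. Jdp2 encodes a JUN partner that represses AP-1 targets. The site had 70 fragments in the control, a fold enrichment of 18.2 and a -log10 p of 69.3, and it lay in an LTR element (MLT1K), 5104 bp from Jdp2, which lies between the site and Batf, and 93168 bp from Batf. No BATF peak with RA was listed within 31083 bp, although 11 fragments, or 22.1% of the scaled control number, would have been enough. The next BATF control peak of the locus had 44 fragments and a -log10 p of 20.2, so it was weaker. It did have a BATF peak with RA, of 29 fragments, with fold enrichments of 5.56 in the control and 4.44 with RA. Fragments of single peaks, here and below, are not scaled, and the RA pool held 71.1% as many as the control.

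Of the other 14 strongest missing sites, the nearest BATF peak with RA was between 6884 bp (the type I interferon cluster) and 628513 bp (Pard3b) away. A site at chr2:84059239-84059632, to which no gene was assigned, had 83 fragments, the highest number of all 357, a fold enrichment of 11.9 and a -log10 p of 61.4. The nearest BATF peak with RA was 334560 bp away. Intron 5 of Cfdp1, a chromatin-associated protein gene, held a site at chr8:111821220-111821700 with 73 fragments and a fold enrichment of 13.7. Intron 14 of Acaca, which encodes acetyl-CoA carboxylase and so the committed step of fatty acid synthesis, held a site at chr11:84252471-84252828 with 63 fragments and a fold enrichment of 15.4. Creb1, a cAMP-responsive transcription factor gene, was assigned a site 23940 bp away with 78 fragments and a fold enrichment of 9.75. Nrp1, which encodes the co-receptor neuropilin-1, held one with 69 fragments and a fold enrichment of 11.5. A promoter site at Sf3b5, a splicing factor subunit gene, was the strongest of the 166 at promoters, with 61 fragments, a fold enrichment of 12.7 and a -log10 p of 49.7. It was the only 1 of the 15 strongest missing sites at a promoter. The other 8 were assigned to Abracl, Heca and Reps1, to Nrd1 and Osbpl9, to the type I interferon cluster (Ifne and Ifna genes, with Mir31), to Phf3, Pard3b, Xpr1, Pilra, and to Lonp2 and Siah1a, with 50 to 69 fragments and -log10 p between 42.4 and 49.4.

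A set of 20 lists of genes with known roles in CD8 T cells was also read, 424 genes in all. Of the 363 with a BATF control peak assigned, 31 (8.54%) were assigned a missing site, through 28 sites, against 602 of all 11912 genes the annotation names for BATF control peaks (5.05%). Listed genes often hold many peaks each, so the shares are not on equal terms. Peak counts given below for single genes stand against 15812 BATF peaks in the control and 9899 with RA over the whole lists. Genes named below were picked for a missing site, so a lower count with RA follows in part from the choice. None of the 19 genes for RUNX, ETS, GATA and Ikaros factors, the 16 for cytokines, the 26 for the cell cycle and the 21 for metabolism was assigned one, and the AP-1 and BATF family had 1 of 15 (Batf).

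Among transcription factors that hold T cells in a memory or stem-like state, 3 of 14 genes with a BATF control peak were assigned a missing site. In Tcf7, which encodes TCF-1, a site in intron 3 at chr11:52268150-52268896 had 36 fragments in the control and a fold enrichment of 8.88. Tcf7 had 15 BATF control peaks and 5 with RA, and the nearest with RA lay 10605 bp away. In Foxp1, a gene for a factor of T cell quiescence, a site in intron 1 at chr6:99340676-99341235 had 39 fragments and a fold enrichment of 9.88, while 26 control peaks and 16 peaks with RA were assigned to the gene. A weak RARα control peak of 12 fragments, with a fold enrichment of 2.88, lay 3658 bp from it. At Bcl6, a repressor of the effector programme, the only BATF control peak assigned to the gene was missing. It lay over the promoter at chr16:23988339-23988939 with 52 fragments and a fold enrichment of 4.83, and the nearest BATF peak with RA was 162138 bp away. The IgG level was high there, so that 21 fragments, or 56.8% of the scaled control number, would have been needed for a call. A RARα control peak with a fold enrichment of 3.02 lay 2151 bp from it.

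For other regulators, 1 of 8 genes of the IRF family, 1 of 18 effector and exhaustion factors and 1 of 17 NF-kB and NFAT genes was assigned a missing site. Irf1, a factor of the interferon response, had 41 fragments and a fold enrichment of 6.87 over a promoter site of 2200 bp at chr11:53769435-53771634. A BATF peak with RA of 25 fragments lay 5439 bp away, just outside the distance of the rule, and a control peak of 45 fragments overlapped it. Zeb2, which drives terminal effector differentiation, was assigned a site 55327 bp away at chr2:45172769-45173068 with 36 fragments and a fold enrichment of 9.47, and the nearest BATF peak with RA was 245068 bp away. Nfatc2, which encodes NFAT1, had a site in intron 5 with 50 fragments and a fold enrichment of 6.15, and a weak RARα peak with RA, of 10 fragments, lay 901 bp away. No RARα control peak lay within 5 kb of it.

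**Figure D4:**
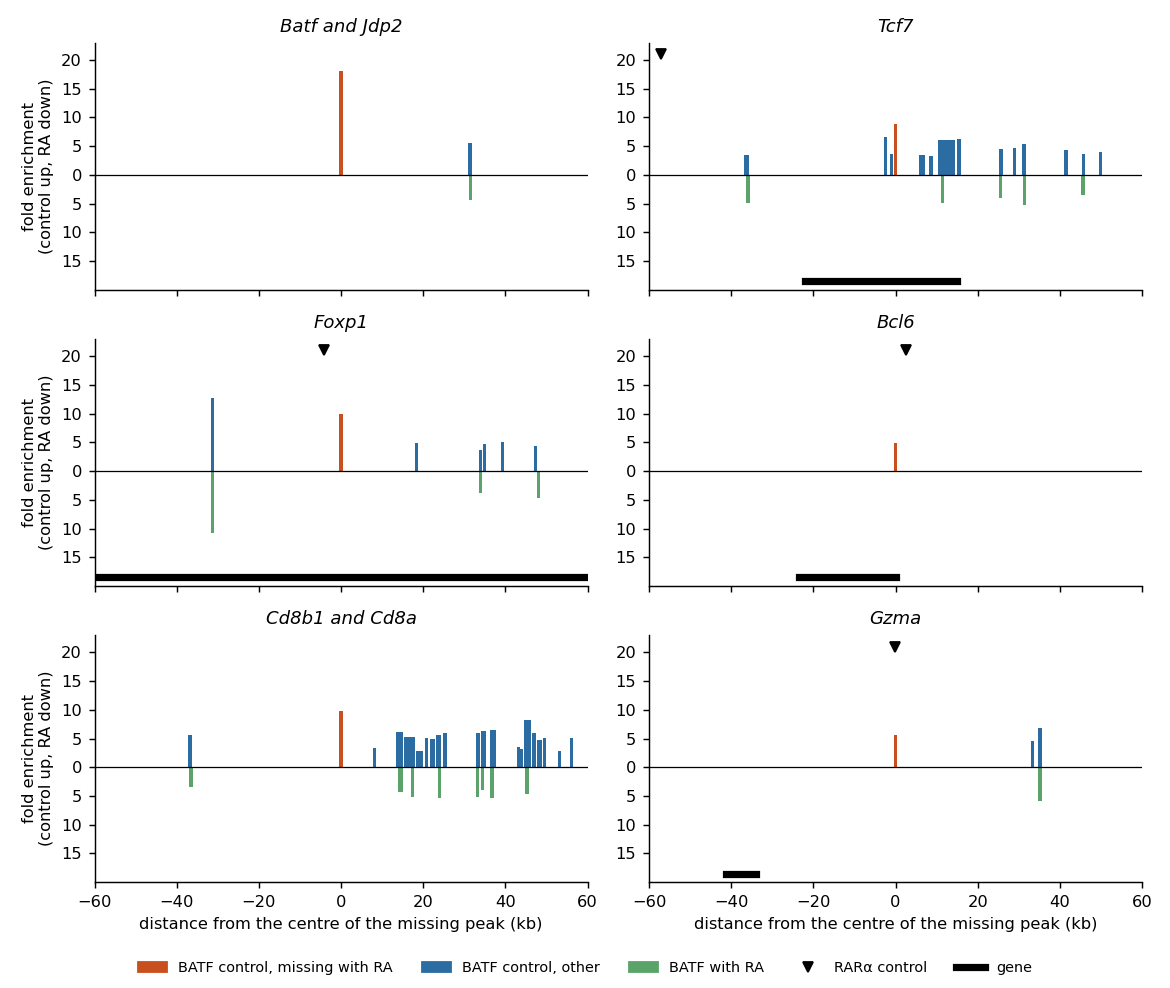
BATF peaks within 60 kb of the centre of 6 missing sites, as fold enrichment in the control (upward, the missing site in orange and other peaks in blue) and with RA (downward, green), against distance in kb. Black triangles mark RARα control peaks and black bars the bodies of Tcf7, Foxp1, Bcl6 and Gzma. Those of Batf, Jdp2 and the Cd8 genes are not drawn, and peaks under 0.8 kb are drawn 0.8 kb wide. No green bar lies at the orange bar in any of the 6 panels, which the rule already fixes.

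The granzymes, the proteases that killer T cells deliver into their targets, accounted for the 5 genes of 13 in the cytotoxicity list, through 2 sites. Between Gzma and Gzmk, 33940 bp from Gzma, a site at chr13:113134921-113135193 had 50 fragments and a fold enrichment of 5.60. The site was only 273 bp wide, and 19 fragments, or 53.5% of the scaled control number, would have been needed for a call. It overlapped a RARα control peak of 51 fragments with a fold enrichment of 7.34, the highest RARα enrichment at any missing site, and neither factor had a peak there with RA. The nearest BATF peak with RA, of 17 fragments and a fold enrichment of 5.95, lay 34830 bp away. It lay over a control peak of 26 fragments and a fold enrichment of 6.88. Near Gzmb, Gzmc and Gzmf, 13338 bp from Gzmb, a site at chr14:56275672-56276785 had 47 fragments and a fold enrichment of 5.93. The BATF peak over the Gzmb promoter was kept, with 53 fragments in the control and 31 with RA before scaling. Its fold enrichments were 5.33 and 4.28. A RARα peak of 12 fragments was listed with RA 756 bp from the missing site.

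Genes of T cell receptor signalling were assigned 5 missing sites, over 5 of 42 genes, and all of these sites lay between genes. A site at chr6:71307975-71308570, 14218 bp from Cd8b1 and 64857 bp from Cd8a, which encode the CD8 co-receptor, had 37 fragments and a fold enrichment of 9.72. Cd8a was assigned 16 BATF control peaks and 5 with RA, and Cd8b1 20 and 7. Cd247, which encodes the CD3 zeta chain, was assigned 2 missing sites with 33 and 36 fragments, 57103 and 49540 bp away. It had 9 control peaks and 3 with RA. Rasgrp1, the activator of RAS below the receptor, was assigned one 60561 bp away with 45 fragments and a fold enrichment of 9.39. Dusp5, an ERK phosphatase gene, was assigned one with 43 fragments at 94531 bp, so that the assignment rests on a long distance.

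Of the inhibitory and costimulatory receptor genes, 3 of 23 were assigned a missing site. Icos, Cd2 and Klrk1 (which encodes NKG2D) were assigned sites with 31, 35 and 34 fragments and fold enrichments of 8.19, 8.79 and 7.29. Klrk1 lay 1302 bp from its site and kept no BATF peak with RA of its 2 in the control. Icos lay 26190 bp from its site and Cd2 40305 bp. Icos went from 8 to 2 BATF peaks and Cd2 from 10 to 4, where the whole list went from 15812 to 9899. Klrk1 was also the only assigned gene of the list for NK and CD4 T cells, and none of the 5 B cell and 2 myeloid marker genes with a control peak was assigned a missing site. Of the cytokine receptor genes and their signal transducers, 3 of 41 were assigned one. Stat3 held an intron site with 32 fragments, Il2rb was assigned a site 80203 bp away with 37, and Il12rb1 one 41959 bp away with 66 fragments but a fold enrichment of only 3.89. Of the genes for chemokines and their receptors, 2 of 28 were assigned one. Ccr4 was assigned a site 2495 bp away with 38 fragments, and Cxcr3, the receptor that draws effector cells to inflamed tissue, one 32971 bp away at chrX:101767118-101767656 with 31. The stronger BATF site near Cxcr3 was kept, with 102 fragments in the control and 74 with RA before scaling. Its fold enrichment was 12.7 in the control and 16.3 with RA.

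The remaining listed sites were assigned to 2 of 18 genes of survival and cell death, 3 of 24 chromatin modifier genes and 1 retinoid gene. Bcl2, the anti-apoptotic gene, had a site in intron 1 with 43 fragments and a BATF peak with RA 5498 bp away. Bcl2 was assigned 11 BATF peaks in the control and 9 with RA. Bik, a pro-apoptotic gene, was assigned a site 52234 bp away with 48 fragments. The promoter site of Dnmt1, which encodes the maintenance DNA methyltransferase, had 36 fragments and a fold enrichment of 8.88, and introns of Hdac4 and Arid1a held sites with 39 and 48. In the list of RAR, RXR and retinoid genes, only Hoxb1 of 16 was assigned one, at 73180 bp and with 50 fragments, so no receptor or retinoid enzyme gene was among them.

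**Figure D5:**
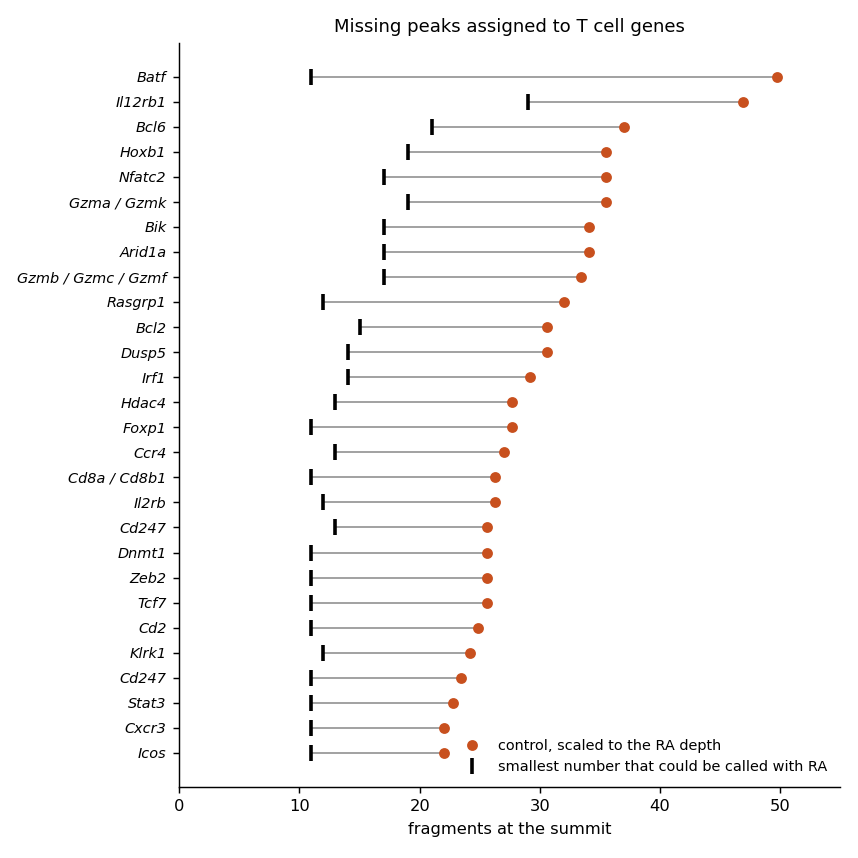
The 28 missing sites assigned to listed genes, with control fragments at the summit scaled to the depth of the RA pool (orange) and the smallest number that would have passed the p-value cutoff with RA (black bars). Every orange point lies to the right of its bar, which the strength asked for by the rule already fixes. The orange points run from 22.0 fragments at Icos and Cxcr3 to 49.7 at Batf.

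RARα and BATF control peaks overlapped at 8 of the 357 missing sites (2.24%) and at 296 of the kept sites (6.39%). After the granzyme A site, the highest RARα enrichments at missing sites were in an intron of Eps15l1, an endocytosis adaptor gene, with a RARα fold of 5.11, and between genes near Grm4, with 4.86. Rab20, a vesicle trafficking gene, had a RARα fold of 4.36 in the control and of 2.37 with RA at its intron site, which had 35 BATF fragments, so RARα was listed there in both conditions. Litaf had a RARα fold of 4.12 at its site with 33 BATF fragments, beside which a peak number is skipped in the BATF list with RA. Close to Pim1, a survival kinase gene, a site with 32 BATF fragments had RARα peaks in both conditions. In the control the peak lay 4003 bp away with a fold of 3.86, and with RA it lay 4036 bp away with 4.05.

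At the edges of the rule, the weakest missing site was the Arl2bp site, with a -log10 p of 20.0232, and the strongest sites just left out by strength were at Atg14, Tox and Zfp608, at 19.9987 each. The missing site with the nearest BATF peak with RA was in Inpp4b at 5059 bp, and the site kept by the longest distance was at Rplp0, with a peak 4906 bp away, followed by Bcl11b at 4778 bp.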

How the data were processed

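Paired-end reads were aligned by the authors with Bowtie2 to mm10 (GRCm38), and peaks were called with MACS 2.2.7.1 on 2 pooled ChIP files against 1 IgG file. Peaks had to reach a p-value of 1e-05 (BATF) or 0.001 (RARα). The deposited signal is the pileup of fragments at the summit, scaled to a step of 0.988 per fragment in the BATF control list. Dividing by this step gave whole numbers within 0.00504 for the 15431 peaks of up to 100 fragments. The deposited fold is a ratio, the pileup plus 1 over the IgG level plus 1. The deposited p-value and q-value are on the −log10 scale, and the q-value was not used.

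The IgG level was recovered from the fold, and the recomputed Poisson −log10 p differed by at most 0.00299 from the deposited one over 15785 peaks. Fragments were then scaled by depth. Peak classes and gene names are the authors' HOMER annotation, and gene positions come from RefSeq (GRCm38.p6). Peak numbers skip 257 values in the BATF list with RA. For 342 of the 357 sites the peaks with RA on both sides carry consecutive numbers. For the other 15, Litaf and Pwp1 among them, whether a skipped number lay at the site cannot be told.

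Sites and gene lists were chosen with earlier results of these data known. Named are the 15 strongest sites, those assigned to listed genes, the 5 with the highest overlapping RARα fold, those near RARα with RA, and up to 3 on each side of a threshold. The steps were checked on simulated data. No test was run, since each condition is 1 list. Sequence was not analysed here. Analyses ran in Python 3.11.15 with scipy 1.17.1, pandas 2.3.3, numpy 2.4.6 and matplotlib 3.10.9.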

Additional observations from a re-analysis of the deposited data

How the results depend on the processing

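With 1 list per condition, an effect of RA cannot be told apart from other differences between the pools. Of 43 recomputed values, 25 moved by less than their counting interval or 1.5 times, 18 moved and 0 reversed. Requiring a -log10 p of at least 15 gave 908 missing sites (12.5% of strong sites, 52.5% at promoters), and at least 30 gave 60 (2.31%, with 26.7% at promoters and 43.3% between genes). Counting only overlap as shared raised the missing share to 9.55%, a distance of 1 kb gave 8.88%, 10 kb gave 6.14%, and 20 kb gave 4.63% and 231 sites. Kept sites within the range of p of the missing ones lay at promoters in 71.9%, in introns in 14.2% and between genes in 14.0%. By overlap the share with RARα was 2.24% at missing and 6.39% at kept sites. With RARα peaks of 1e-05 or smaller it was 1.96% and 5.27%. Within 10 kb, 329 genes were assigned. Leaving out the 15 sites beside a skipped peak number, chosen after seeing the data, left 342 sites, 46.2% at promoters and 3.22% near RARα. The AP-1 motif alternative was not run, since no genome sequence was used. No paired analysis was possible because each condition has 1 list.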

Other observations

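The patterns below were chosen after the values were seen and were not tested. On chromosome X, 7 of 36 strong BATF sites outside exons were missing with RA (19.4%, Wilson 95% interval 9.75 to 35.03), against 350 of 4950 on the autosomes (7.07%, 6.39 to 7.82). Over all BATF control peaks the shares were 49.4% (115 of 233) and 29.8%. At strong sites on X that were kept by overlap, RA fragments were a median of 76.9% of the scaled control number (29 sites), against 78.2% on autosomes. The 7 sites were assigned to Ubl4, Ogt, Nhsl2, Atrx, Gm5127, Kdm5c and the Cxcr3 locus. Kdm5c encodes a histone demethylase and Atrx a chromatin remodeller.

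Among the promoter sites, genes with names beginning in Zfp, which encode zinc finger proteins, made up 8 of 166 missing sites (4.82%) and 57 of 3162 kept ones (1.80%). Mitochondrial ribosomal protein genes (Mrpl and Mrps) made up 4 of 166 (2.41%) and 29 of 3162 (0.917%). These are small counts. A few missing sites were wide. An intron site of Akap13 spanned 2813 bp, and the promoter site of Tagap, a T cell activation gene, spanned 2521 bp with 43 fragments and a fold enrichment of 9.97.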
